A study of Mus musculus with 6 samples.

Results

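The p53 pathway and its target genes were examined in C1498 cells, a mouse leukemia line of C57BL/6J background that is labelled as acute myeloid leukemia. Cells received the PARP-1 inhibitor PJ34 at 20 μM or PBS alone, in both cases for 48 h, and each group was read on 3 Affymetrix mouse gene arrays. The members are 32 listed genes, and a gene counted as measured where a probe set carried its symbol and no other. This held for 31 of the 32, against 19938 genes measured in the whole series. Trp53 itself was not analysed here, because the gene table used lists no probe set for it. All values are log2 expression values, so that a difference of 1 is a 2-fold change, and all differences are PJ34 minus PBS.

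The transcription factor p53 is held at a low level in resting cells by the ubiquitin ligase Mdm2 and the related protein Mdm4. DNA damage and other stresses activate kinases that free p53 from these partners, and p53 then switches on genes that stop the cell cycle, repair DNA, alter metabolism or start cell death. Several targets, Mdm2 among them, act back on p53 and limit the response. PARP-1 is an enzyme that senses DNA strand breaks.

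The arrays were alike in overall level, with medians between 4.41 and 4.46, and their pairwise correlations were 0.992 to 0.995 for arrays of the same group and 0.992 to 0.994 for arrays of different groups. Of 14 myeloid markers, 11 had a mean below the median of all probe sets (4.42), among them Spi1 at 3.44 and Mpo at 3.81. Of 11 measured T and NK cell markers, 6 had a mean below that median, among them Cd4 at 4.14 and Ncr1 at 2.57, while Cd3g and Cd3e, chains of the T cell receptor complex, had means of 11.08 and 10.47. Most defining myeloid markers were thus dim, which does not bear out the myeloid label, and the T and NK cell markers were mixed. The cells are therefore called only by the name of the line. Of the 11 T and NK cell markers, Cd7, Cd4 and Gzma rose with PJ34 at an adjusted p under 0.05 from limma, and none fell. Their differences were positive in 8 and negative in 3, among these Zap70 at -0.26 with all PJ34 values below the PBS values. The linear intensities (2 to the power of each log2 value) summed over the list ran from 3905 to 4069 with PBS and from 4449 to 4637 with PJ34. Cd7, with the largest difference, had means of 7.64 with PBS and 9.30 with PJ34. Of the 14 myeloid markers, Cd68 alone passed the test, and it rose. Their differences were positive in 6 and negative in 8, among these Elane at -0.20. The sums were 201 to 208 with PBS and 207 to 228 with PJ34. None of the 4 measured B cell markers passed the test, with sums of 48 to 53 and 49 to 54. Whether these markers have a part in the differences of p53 pathway genes was not tested. In RNA from a whole culture, fewer cells of a kind and less RNA per cell cannot be told apart.

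After PJ34, 1 of the 31 measured p53 pathway genes passed the test, namely Trp53inp1, which was 1.87-fold higher. It encodes a stress-induced protein that promotes the phosphorylation of p53 and cell death. With PBS its log2 values were 6.62, 6.64 and 6.80, and with PJ34 they were 7.55, 7.68 and 7.56. The lowest PJ34 value thus lay 0.75 above the highest PBS value, far beyond the spread within either group (SD 0.0965 with PBS and 0.0704 with PJ34, 3 arrays each). The log2 difference was 0.91 (SE 0.0742, adjusted p = 0.000872 from limma), with a 95% confidence interval of 1.67 to 2.11 for the fold. No member fell at an adjusted p under 0.05 from limma, and the 2-tailed t-test named in the methods gave none after adjustment either. At an unadjusted p under 0.05 from limma, 3 members were higher (Trp53inp1, Sesn1 and Perp) and 4 lower (Mdm4, Plk3, Ddb2 and Pidd1), while 16.7% of all probe sets passed that threshold in either direction. The methods' t-test also gave 3 and 4 before adjustment, with Trp53i11 in place of Perp and Steap3 in place of Pidd1. Of all 23412 probe sets tested, 1.72% were called higher and 1.35% lower, so that a count of 1 and 0 among 31 genes lies near the level over all genes.

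**Figure D1:**
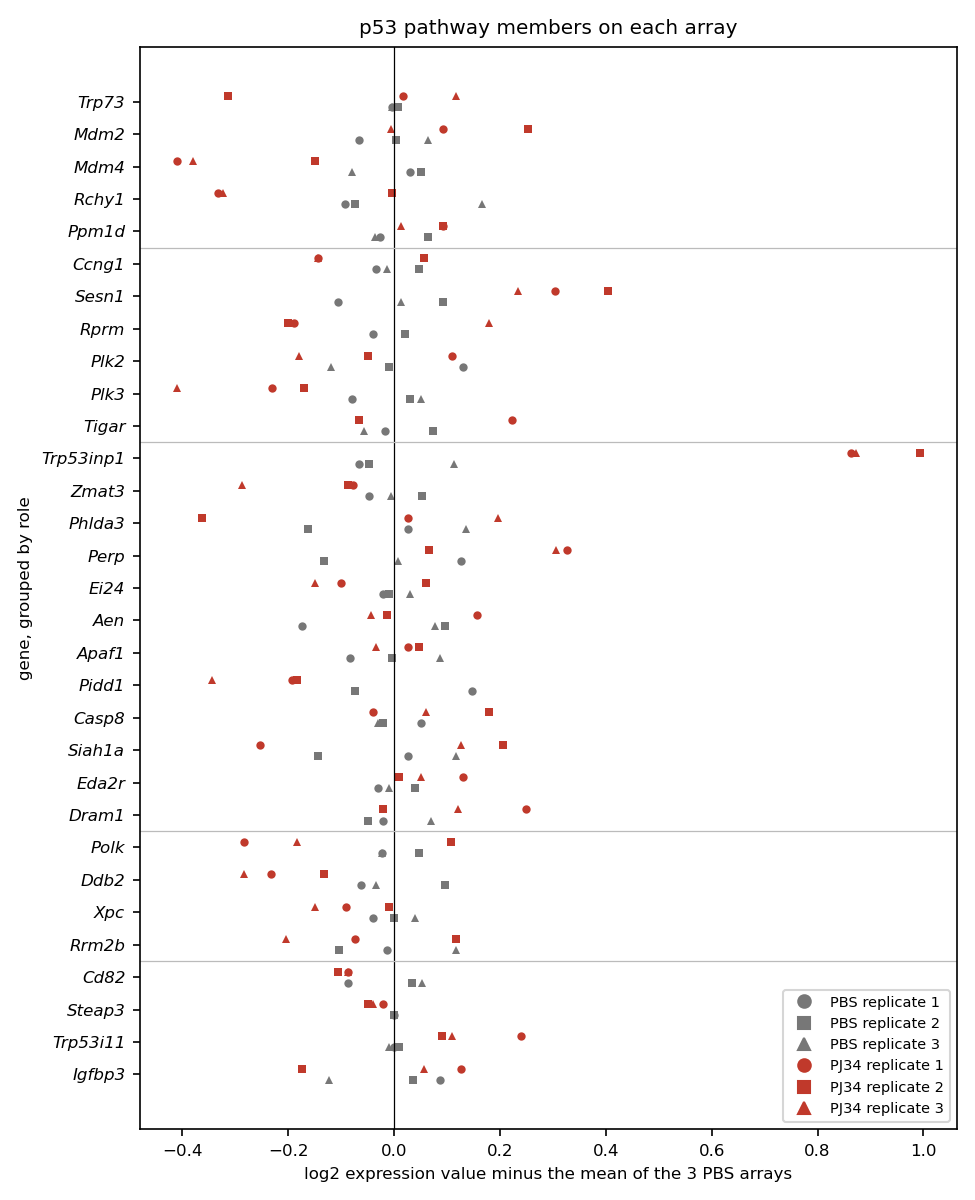
Log2 expression value of the 31 measured p53 pathway genes on each array, minus the mean of the 3 PBS arrays of that gene (horizontal axis), 1 row per gene with lines between the groups of roles; grey points are PBS and red points PJ34 arrays, and the shape gives the replicate. The 3 PJ34 points of Trp53inp1 stand apart at 0.75 or more above its highest PBS point, and in 22 of the 31 rows the grey and red points overlap. Over all probe sets, the PJ34 values all lay above the PBS values in 12.6% and below them in 10.9%.

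p53 binds DNA at pairs of a short palindromic motif, the p53 half-site, and the promoters of the members were searched for it. The windows, from RefSeq on GRCm38.p6, run from 250 bases before to 50 bases after each annotated start. For 25 of the 31 measured members there were 37 such windows, and 9 of these (24.3%) held a half-site of 10 bases, against 2745 of 32851 windows of all genes (8.36%). The 9 windows belong to 8 members, because windows of Aen overlap and hold the same site. The members were listed for their part in the p53 pathway, so these shares do not bear on PJ34. The motif reads the same on both strands, so a single search covers both. No window of a member held a pair of half-sites with up to 13 bases between them, as 24 of all windows did. The search allowed no mismatch and left out all sequence beyond the windows, so it does not show that the members lack such pairs. The half-sites are shown in capitals with 15 bases on either side, because they mark the members whose promoters share this motif. Positions count from the annotated start.
Mdm2, chr10:117710920-117710959, minus strand, motif at -186: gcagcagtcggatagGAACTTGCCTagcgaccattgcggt
Ppm1d, chr11:85311107-85311146, plus strand, motif at -132: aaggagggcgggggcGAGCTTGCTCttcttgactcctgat
Rchy1, chr5:91962622-91962661, minus strand, motif at -90: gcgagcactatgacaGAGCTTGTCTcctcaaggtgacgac
Sesn1, chr10:41887251-41887290, plus strand, motif at -173: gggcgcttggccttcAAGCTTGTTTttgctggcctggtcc
Ccng1, chr11:40755447-40755486, minus strand, motif at -185: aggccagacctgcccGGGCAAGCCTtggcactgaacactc
Ei24, chr9:36797320-36797359, minus strand, motif at -10: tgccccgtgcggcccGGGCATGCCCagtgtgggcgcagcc
Aen, chr7:78895922-78895961, plus strand, motif at -121 and at 11 of 2 annotated starts: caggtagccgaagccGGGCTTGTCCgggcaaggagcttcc
Polk, chr13:96519394-96519433, minus strand, motif at -231: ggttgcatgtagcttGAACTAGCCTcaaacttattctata

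No window was used for Trp53inp1, Zmat3, Perp, Ddb2, Xpc and Rrm2b. In the 8 members shown, the log2 differences were positive in 4 (Mdm2, Ppm1d, Sesn1 and Aen) and negative in the other 4, and ran from -0.22 in Rchy1 to 0.31 in Sesn1. Mdm4 and Plk3 had windows in which these letters do not occur. A match describes the sequence of the window only and does not show that p53 binds there.

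Among the regulators of p53, Mdm4 and Mdm2 lay on opposite sides of 0 and neither passed the test. Mdm4, which binds p53 and blocks its activity as a transcription factor, had values of 8.06, 8.08 and 7.95 with PBS and of 7.62, 7.88 and 7.65 with PJ34. All 3 PJ34 values lay below the PBS values, with PJ34 replicate 2 the nearest to them. The log2 difference was -0.31 (SE 0.0844, adjusted p = 0.096 from limma), and without PJ34 replicate 2 it was -0.39 with an adjusted p of 0.0387, which passed. The call was also made where the variance estimates followed an intensity trend and were robust, at an adjusted p of 0.0142, and at 0.0325 where probe sets below the median level were not tested. Over all settings the adjusted p of Mdm4 ran from 0.0142 to 0.268.

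Mdm2, the ubiquitin ligase that marks p53 for degradation and is itself a classic p53 target, had values of 8.41, 8.48 and 8.54 with PBS and of 8.57, 8.73 and 8.47 with PJ34. The groups overlapped through PJ34 replicate 3, and the log2 difference was 0.11 (SE 0.0814, adjusted p = 0.555 from limma). Its 95% confidence interval ran from 0.952 to 1.23-fold. Its promoter window holds one of the half-sites shown above. For the ubiquitin ligase Rchy1, also known as Pirh2, the log2 difference was -0.22 (SE 0.109), and the groups overlapped because PJ34 replicate 2, at 7.12, lay above the lower PBS arrays. The phosphatase Ppm1d, which removes activating phosphates from p53 and its kinases, lay at 8.33 to 8.43 with PBS and 8.38 to 8.46 with PJ34 and differed by 0.07. Trp73, the relative of p53, had a difference of -0.06 and lay below the median of the probe sets, with PBS values of 4.06 to 4.07 and PJ34 values of 3.75 to 4.18.

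Of the 6 targets that act on growth arrest, cell cycle kinases or metabolism, none passed the test, while Sesn1 and Plk3 did not overlap between the groups. Over all probe sets, the PJ34 values all lay above the PBS values in 12.6% and below them in 10.9%. Sesn1 encodes a sestrin, a stress-induced protein that restrains the growth kinase mTORC1. Its values were 7.70, 7.90 and 7.82 with PBS and 8.11, 8.21 and 8.04 with PJ34. Every PJ34 value was above every PBS value, with a gap of 0.14 between the groups. The log2 difference was 0.31 (SE 0.0765, adjusted p = 0.0725 from limma), or 1.24-fold (95% confidence interval 1.1 to 1.4). In the same pair of settings that called Mdm4, trend with robust estimates and dim probe sets excluded, Sesn1 passed at 0.00849 and 0.0214. Across all settings tried, the adjusted p of Sesn1 lay between 0.00849 and 0.2.

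Plk3, a polo-like kinase activated by stress, had values of 5.40, 5.51 and 5.53 with PBS and of 5.25, 5.31 and 5.07 with PJ34. All 3 PJ34 values were lower, and the gap to the PBS values was 0.09. The log2 difference was -0.27 (SE 0.0793, adjusted p = 0.12 from limma), which passed in the setting with dim probe sets excluded alone, at 0.0416 in a range of 0.0416 to 0.317. Its relative Plk2 lay among the dim probe sets, with values from 2.84 to 3.15 over the 6 arrays and a log2 difference of -0.04. Ccng1, cyclin G1 and one of the most regular p53 targets in mouse cells, had PBS values of 8.81, 8.89 and 8.83 and PJ34 values of 8.70, 8.90 and 8.70. The groups overlapped through PJ34 replicate 2, and the log2 difference of -0.08 had a 95% confidence interval of 0.843 to 1.07-fold. Tigar, an enzyme that lowers glycolytic flux, was at 6.24 to 6.37 with PBS and 6.23 to 6.52 with PJ34, a difference of 0.03. Rprm, a gene of G2 arrest whose probe set was dim, was at 4.23 to 4.29 and 4.07 to 4.45, a difference of -0.07.

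The 12 members with roles in apoptosis and growth inhibition held Trp53inp1, and 8 of them had a positive and 4 a negative difference. Apart from Trp53inp1, these ran from -0.25 in Pidd1 to 0.24 in Perp on the log2 scale. Pidd1 encodes the core of the PIDDosome, a complex that activates caspase-2. It measured 6.13, 5.91 and 5.91 with PBS and 5.79, 5.80 and 5.64 with PJ34, so that all PJ34 arrays were below all PBS arrays. The SE was 0.0847 and the adjusted p 0.184 from limma, which did not pass. Perp, a membrane protein of cell junctions and of p53-dependent apoptosis, had values of 3.73, 3.47 and 3.61 with PBS and of 3.93, 3.67 and 3.91 with PJ34. Its groups overlapped, the probe set lay below the median level, and the test was not passed (SE 0.0966, adjusted p = 0.262 from limma).

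Zmat3, a zinc finger protein that binds RNA, was between 6.89 and 6.99 with PBS and between 6.65 and 6.86 with PJ34. Its groups stood apart by 0.02 only, and the log2 difference of -0.15 had an SE of 0.0766. Apaf1, the scaffold of the apoptosome, was at 7.75 to 7.92 with PBS and 7.80 to 7.88 with PJ34, and differed by 0.01 (95% confidence interval 0.906 to 1.12-fold). Casp8, the initiator caspase of death receptors, was at 10.51 to 10.59 and 10.50 to 10.72, and differed by 0.06 (0.93 to 1.18-fold). In both genes the PJ34 arrays lay on either side of PBS values. Aen, an apoptosis-enhancing nuclease, had values of 6.06 to 6.33 with PBS and 6.19 to 6.39 with PJ34 and a difference of 0.04. Siah1a, a ubiquitin ligase, had values of 5.44 to 5.70 and 5.33 to 5.79 and a difference of 0.03. Ei24, a protein of the endoplasmic reticulum, had values of 7.41 to 7.46 and 7.28 to 7.49 and a difference of -0.07, and its groups overlapped through PJ34 replicate 2. Dim probe sets were those of Phlda3, which represses the kinase Akt, Dram1, a lysosomal protein of autophagy, and the receptor Eda2r. Over the 6 arrays they ran from 3.79 to 4.35, from 3.74 to 4.04 and from 2.47 to 2.63, with log2 differences of -0.04, 0.12 and 0.06. Phlda3 had the widest interval of all members, 0.776 to 1.21-fold.

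All 4 members of DNA repair and nucleotide supply had negative differences, from -0.21 to -0.06 on the log2 scale, and none passed the test. Ddb2, which recognises UV lesions in DNA, had values of 7.42, 7.58 and 7.45 with PBS and of 7.25, 7.35 and 7.20 with PJ34. The groups did not overlap, by a gap of 0.07. The log2 difference was -0.21 (SE 0.0725, adjusted p = 0.181 from limma), and it passed in no setting tried (adjusted p from 0.0667 to 0.44). Xpc, its partner in nucleotide excision repair, was at 7.12 to 7.20 with PBS and 7.01 to 7.15 with PJ34, a difference of -0.08. Polk, a DNA polymerase that copies past lesions, was at 6.55 to 6.62 and 6.29 to 6.68, a difference of -0.12. Rrm2b, the ribonucleotide reductase subunit that p53 induces, was at 5.57 to 5.79 and 5.47 to 5.79, a difference of -0.06. In these 3 genes the groups overlapped and PJ34 replicate 2 was the highest PJ34 array, and in Xpc and Polk it was the only PJ34 array within or above the PBS range.

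Among the remaining targets, Trp53i11 had PBS values of 5.05, 5.06 and 5.04 and PJ34 values of 5.29, 5.14 and 5.16. The PJ34 arrays were all higher, with a log2 difference of 0.15 (SE 0.065, adjusted p = 0.307 from limma). Steap3, a ferrireductase of iron uptake, was also separate between groups, at 8.59 on each PBS array and 8.54 to 8.57 with PJ34, although the difference was only -0.04. The tetraspanin Cd82 was at 9.65 to 9.79 with PBS and 9.63 to 9.65 with PJ34, a difference of -0.09. Igfbp3, a binding protein of insulin-like growth factors on a dim probe set, was at 4.15 to 4.36 and 4.10 to 4.40, a difference of 0.0038.

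**Figure D2:**
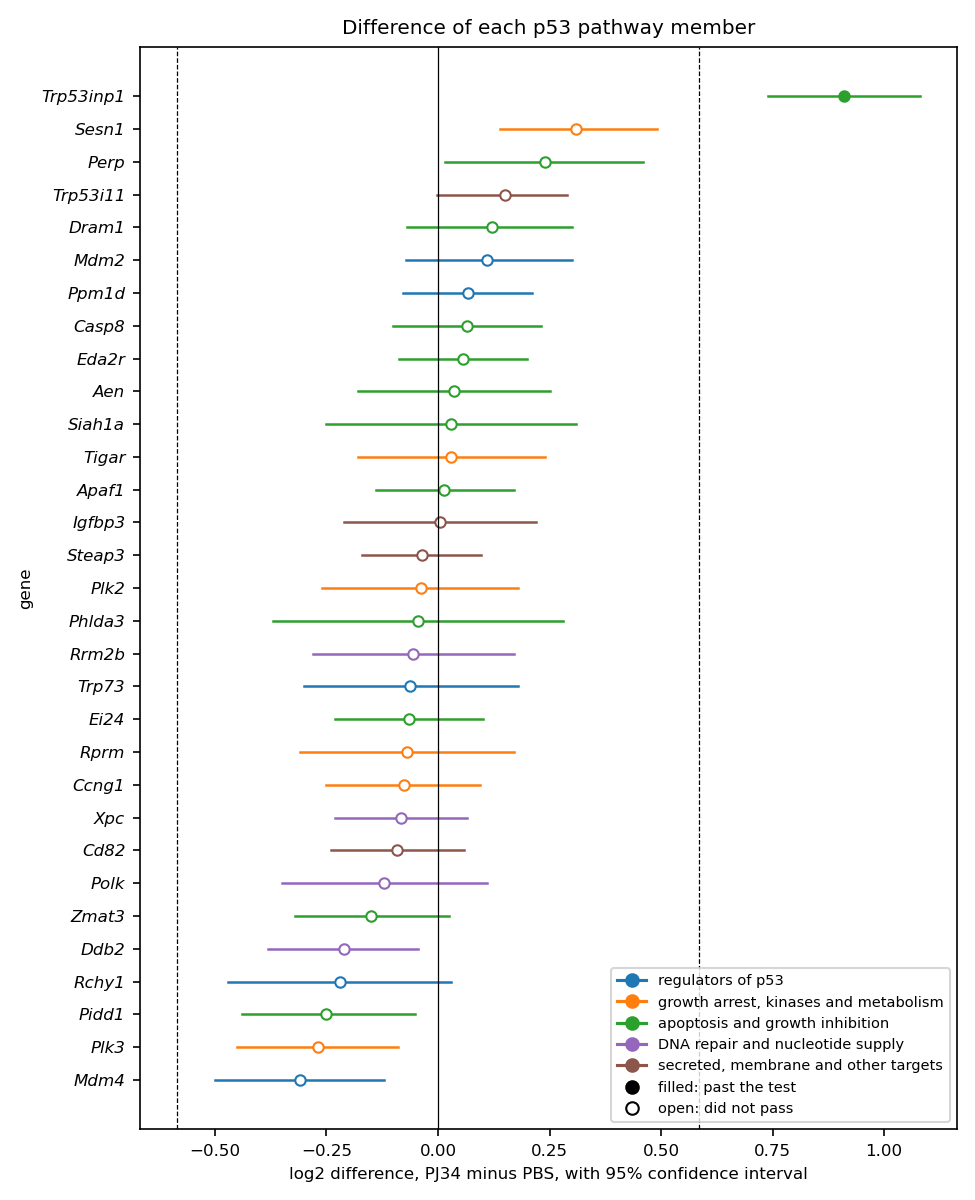
Log2 difference of each of the 31 measured members (points, horizontal axis, PJ34 minus PBS) with its 95% confidence interval from limma (bars), coloured by role; the filled point passed the test at an adjusted p under 0.05 and open points did not, and dashed lines mark a 1.5-fold change in either direction. All intervals but that of Trp53inp1 lie between the dashed lines.

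Across the members, 14 differences were positive and 17 negative, with a median of -0.039, against 0.0029 over all probe sets tested. The median size of a difference, regardless of sign, was 0.077 among the members and 0.083 over all probe sets. The 95% confidence intervals of 30 of the 31 members lay within 1.5-fold in either direction, Trp53inp1 being the exception. Over all probe sets 96.7% of intervals did so. These are intervals for 1 gene at a time. They limit how far the value of each probe set may have moved without showing that it did not move. For the 8 members below the median level, an unknown share of background may make a difference smaller. All 3 PJ34 values lay above all PBS values in 3 members (Trp53inp1, Sesn1 and Trp53i11) and below them in 6 (Mdm4, Plk3, Pidd1, Ddb2, Zmat3 and Steap3). Over all probe sets these shares were 12.6% and 10.9%. With 3 arrays in each group, 0.1 is the smallest p that an exact permutation test, two-sided, allows for a single gene.

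**Figure D3:**
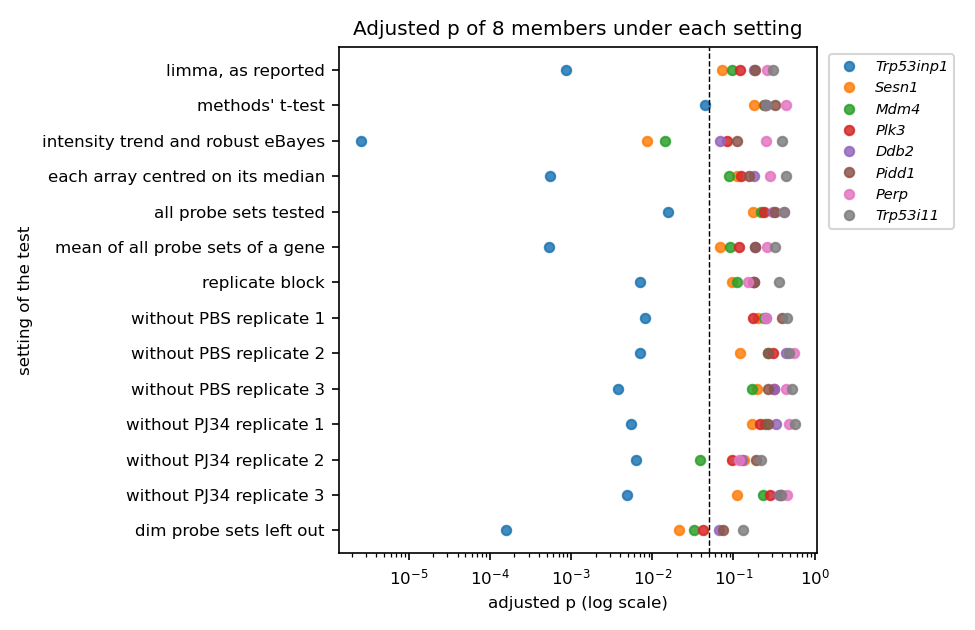
Adjusted p (horizontal axis, log scale) of the 8 members with the lowest p, under the test as reported and each alternative setting (rows); the dashed line marks 0.05. Trp53inp1 lies left of the line in every row, between 2.59e-06 and 0.0443, and Sesn1, Mdm4 and Plk3 cross it in some.

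The other genes of the pathway were taken from a list of 57, of which 49 were measured. Of these, 5 passed the test, 2 higher and 3 lower, which are larger shares than the 1.72% and 1.35% of all probe sets. Whether the shares differ was not tested, and 41 of the 49 genes lay above the median level of the probe sets. Btg2, an antiproliferative target, and Tsc2, a subunit of the complex that restrains mTORC1, rose. Gadd45a, a growth arrest gene, Sesn2, a further sestrin, and Bbc3, which encodes the death protein Puma, fell. Btg2 had values of 5.92, 6.13 and 6.17 with PBS and of 6.98, 6.92 and 6.85 with PJ34. It was 1.79-fold higher (log2 difference 0.84, SE 0.0819, adjusted p = 0.00217 from limma). The call of Btg2 was lost with the methods' t-test (adjusted p = 0.062) and held in the other 12 alternative settings. Tsc2 had values of 7.79, 7.83 and 7.89 with PBS and of 8.20, 8.15 and 8.10 with PJ34. Its log2 difference was 0.32 (SE 0.0634, adjusted p = 0.036 from limma), and the call was lost without any 1 of the 6 arrays (adjusted p from 0.0027 to 0.137 over all settings).

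Gadd45a fell by 0.47 (SE 0.0659, adjusted p = 0.00953 from limma), from 7.50, 7.62 and 7.62 with PBS to 7.12, 7.16 and 7.07. Without PBS replicate 2 or 3 its adjusted p was 0.0546 or 0.0532, with the methods' t-test 0.0634 and over all probe sets 0.0504. Sesn2 fell by 0.40 (SE 0.0677, adjusted p = 0.0193 from limma), from 8.42, 8.49 and 8.54 to 8.16, 8.08 and 8.02. Sesn1 and Sesn2, both sestrins, thus lay on opposite sides of 0, and the difference between the pair was not tested. The call of Sesn2 was lost without PBS replicate 1, 2 or 3 or PJ34 replicate 3 (adjusted p = 0.0505, 0.0869, 0.0921 and 0.0735), with the methods' t-test (0.0829) and in the test over all probe sets (0.074). Bbc3 fell by 0.33 (SE 0.0614, adjusted p = 0.0266 from limma), from 5.93, 6.00 and 6.03 to 5.63, 5.65 and 5.67. Its call held without PJ34 replicate 2 and was lost without any other array (adjusted p from 0.0597 to 0.119), as well as with the methods' t-test (0.0598) and over all probe sets (0.0826).

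**Figure D4:**
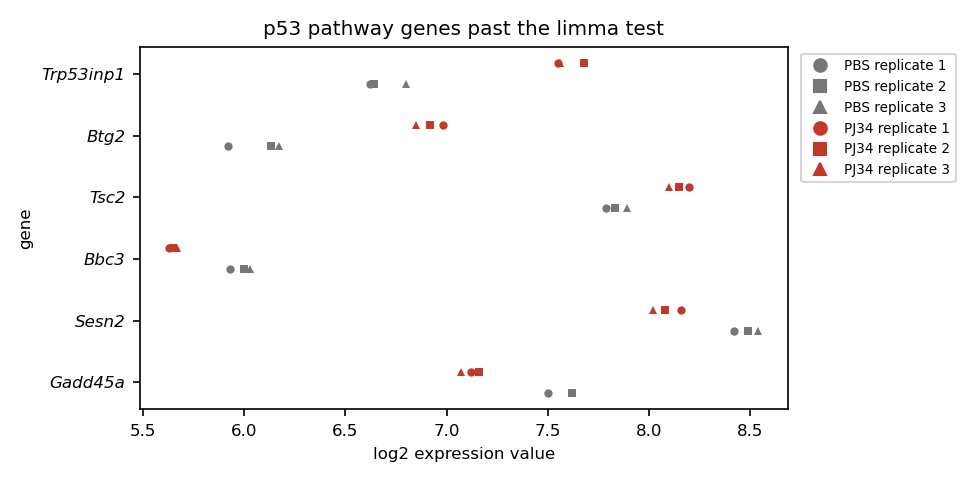
Log2 expression value (horizontal axis) of single arrays, grey for the 3 PBS and red for the 3 PJ34 arrays, for the 6 p53 pathway genes past the limma test, 1 row per gene; shapes give the replicate. The groups do not overlap in any row, and the gap between them runs from 0.22 in Tsc2 to 0.75 in Trp53inp1. The genes were chosen by the test on these same arrays, so this separation adds no support of its own.

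Of the 7 kinases and mediators upstream of p53, none passed the test, although 4 had an unadjusted p under 0.05 from limma, a threshold that 16.7% of all probe sets passed. The damage kinases Atr and Prkdc and the checkpoint kinase Chek2 had log2 differences of -0.23, -0.19 and -0.20, and Hipk2, a kinase of p53, had one of 0.17. For Atr the PBS values were 6.81, 6.91 and 6.80 and the PJ34 values 6.59, 6.67 and 6.57. The damage kinase Atm differed by -0.11 and Chek1 by 0.08. None of the 13 cofactors, modifiers and relatives passed either. Crebbp, a coactivator of p53, was at 0.24 (adjusted p = 0.0899 from limma). Cop1, a further ubiquitin ligase of p53, was at -0.25 (adjusted p = 0.172 from limma) on the brighter of its 2 probe sets. The dimmer Cop1 probe set is not reported here. Cdkn2a, whose Arf product inhibits Mdm2, had a log2 difference of 0.0063 and was above the median level on every array (7.41 to 7.62). Over the 49 genes, 25 differences were positive and 24 negative, with a median of 0.0063. In 10 of them all PJ34 values lay above and in 11 all lay below the PBS values. These are larger shares than the 12.6% and 10.9% of all probe sets, a difference that was not tested. Cdkn1a and Bax, both standard p53 targets, are not reported here. In the gene table used, Cdkn1a is listed only together with another symbol, and Bax is not listed. Probe sets of several genes were in the fit but were not read for any single gene.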

How the data were processed

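The authors ran RMA, which corrects background, normalizes by quantiles and summarises probes, and deposited log2 values for 35556 probe sets. The submitters' processing notes name Affymetrix Expression Console 1.3.1. No detection calls or scanner files were used. The genome build behind the probe sets is not given in the sources used here. The platform's gene table gives 1 gene for 21789 probe sets and several for 1621. These and 2 that the paper names were tested with limma 3.58.1 in R 4.3.3, PJ34 against PBS, with Benjamini-Hochberg adjustment over all 23412, and calls were made at an adjusted p under 0.05. Each measured member had 1 probe set, and all 31 symbols matched RefSeq by gene number. For other genes with several probe sets, the one with the highest mean was used. By rule, each measured member was named with its level and difference, and full statistics were given for members past the test, Trp53 and Mdm2, the 8 members with the lowest p and other pathway genes past the test, with Cdkn1a and Bax whatever their values (Trp53, Cdkn1a and Bax had no probe set of their own). The members and lists were chosen with earlier results of these data known. The paper describes its array results as coming from 3 independent experiments. The labels number 3 replicates per group without saying that they came from separate cultures. If they did not, p-values may measure technical spread only. Precision is limited by the number of arrays. The fit was tested on simulated data. The alternatives were the methods' t-test, an intensity trend with robust eBayes, leaving out dim probe sets (mean below the median), centring each array, testing all probe sets, averaging the probe sets of a gene, a replicate block and leaving out each array.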

Additional observations from a re-analysis of the deposited data

How the results depend on the processing

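Trp53inp1 passed the test in all 13 alternative settings, with a log2 difference from 0.87 to 0.96. With an intensity trend and robust eBayes, 2 members were higher and 1 was lower. Without dim probe sets, which left 23 of the 31 members, 2 were higher and 2 lower. Leaving out each array in turn gave 1 higher and 0 to 1 lower, the 1 being Mdm4 without PJ34 replicate 2. Of the other pathway genes, 2 higher and 3 lower as reported, the methods' t-test called 0 and 0 after adjustment and 8 and 10 before it, the intensity trend 6 and 4, the fit without dim probe sets 6 and 4, centring 1 and 3, and the test over all probe sets 1 and 0. Leaving out 1 array gave 1 higher and 0 to 4 lower. Without PBS replicate 2 or 3 the latter count was 0, without PBS replicate 1 or PJ34 replicate 3 it was 1, and without PJ34 replicate 1 or 2 it was 2 or 4. Deviations of same-numbered arrays from their group means correlated at -0.013, 0.13 and -0.00915. For arrays of different number the correlations ran from -0.147 to 0.145. These values do not settle whether the replicate numbers pair the arrays, because paired arrays may share little deviation. With the replicate block, 1 member was higher and 0 lower, and 1 and 1 of the other genes (Btg2 and Gadd45a), since the adjusted p of Tsc2, Sesn2 and Bbc3 was then 0.0941, 0.0633 and 0.0669. The direction held in every setting for 22 members. It changed in 9 that were near 0. Centring each array gave -0.007 for Apaf1 and -0.017 for Igfbp3. Without 1 array the log2 differences ran from -0.15 to 0.065 in Trp73, -0.11 to 0.033 in Plk2, -0.068 to 0.077 in Tigar, -0.17 to 0.11 in Phlda3, -0.053 to 0.083 in Aen, -0.026 to 0.055 in Apaf1, -0.06 to 0.17 in Siah1a, -0.14 to 0.02 in Rrm2b and -0.058 to 0.094 in Igfbp3. Dim probe sets carry an unknown share of background, which touches 8 members.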

Other observations

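Of the 3 PJ34 arrays, replicate 2 stood farther from the other pair than they stood from each other in 18 of the 31 members (58.1%), against 46.1% of all probe sets. For PJ34 replicates 1 and 3 this was so in 7 and 6 members. Among the PBS arrays the counts were 10, 12 and 9 for replicates 1, 2 and 3. The cause was not tested.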
